A study of Mus musculus with 12 samples.

Results

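The genes described here are 8 mouse genes, Pttg1, Cyfip2, Mrpl55, Mfap3, B9d1, Acsl6, 2210407C18Rik and 2610507I01Rik, whose array signals in the left ventricle depended on whether the mouse carried Adora2b. They were picked by symbol, out of 14044 genes tested, because they differed between the genotypes in these arrays and were taken to lie near Adora2b on chromosome 11. The genotype differences below are therefore descriptions without a test. The responses to ischemic preconditioning (IP) were not used to pick the genes and were tested. The 8 genes have 17 probe sets among the 45037 used on the array, and each gene is represented by its brightest probe set.

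Each array holds RNA from the area at risk of a left ventricle, snap frozen, and there are 3 arrays in each of 4 groups. All mice were male, 12 weeks old and on a BL6/C57 background. The groups were wild-type control, wild-type IP, A2BAR-/- control and A2BAR-/- IP hearts. A2BAR is the adenosine A2B receptor, which Adora2b encodes, and the A2BAR-/- hearts are called knockout below. IP was 4 cycles of 5 min of ischemia and 5 min of reperfusion in the intact animal, followed by 2 h of reperfusion. The labels call the controls untreated in one place and sham operated in another. The knockouts were bred in house, whereas the labels have wild-type mice coming from a vendor in one field and from the knockouts' own litters in another. How the knockout line was made and crossed is not stated in the labels, and none of the 4 groups separates the missing receptor from other differences between the mouse lines, so those cannot be told apart. Nothing in the labels ties each array to an animal of its own, so the p-values reflect the spread between the deposited samples, which may be technical. With so few arrays a group, each value has limited precision.

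Genes on one chromosome are passed on together when they lie close to each other, so a mouse line selected for a change at one gene also carries that line's own copies of its neighbours. The 8 genes have no shared pathway. Pttg1 encodes securin, which holds the protease separase inactive until sister chromatids separate. Cyfip2 is a subunit of the WAVE complex, which turns on branching of actin filaments. Mrpl55 is a protein of the large subunit of the mitochondrial ribosome, and Mfap3 is named as a microfibril-associated protein. B9d1 belongs to the transition zone at the base of the primary cilium, and Acsl6 joins long fatty acids to coenzyme A and is best known from brain. The other 2 carry RIKEN clone names, and no role is stated for them here.

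Of the 8 genes, 7 have a position in the authors' deposited table, which names no genome build, and all 7 lie on chromosome 11 at lower coordinates than Adora2b (62065179 to 62082647). Pttg1 lies farthest away, from 43263687 to 43269404, which leaves a gap of 18.8 Mb. Cyfip2 follows from 46037281 to 46155773, with a gap of 15.9 Mb. Both were thus well outside the immediate surroundings of the targeted gene. Acsl6 spans 54147247 to 54204962 at a gap of 7.86 Mb. Mfap3 spans 57334860 to 57350012 at 4.72 Mb, and 2210407C18Rik spans 58424399 to 58429665 at 3.64 Mb. Mrpl55 spans 59018712 to 59022197 at 3.04 Mb. B9d1, listed in the table under its older symbol Eppb9, was the nearest, from 61321367 to 61329122 at 0.736 Mb. The table gives no position for 2610507I01Rik.

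RefSeq sequences placed 2610507I01Rik beside Mrpl55: the 2 genes start 54 bases apart and are read in opposite directions, Mrpl55 on the plus strand and 2610507I01Rik on the minus strand of build GRCm38.p6. This pair is shown because both of its genes are among the 8 and had lower signals in the knockout. B9d1 and Acsl6 also have a start of the opposite direction close by, B9d1os at 57 bases and Gm51861 at 122 bases. Neither of these partners has a value in the fit. The 250 bases before the start of Mrpl55 (chr11:59202236-59202485, plus strand, 5′ to 3′) are given first below, with the 54 bases between both starts in capitals. The matching 250 bases before Pttg1 (chr11:43425982-43426231, minus strand) and Cyfip2 (chr11:46312359-46312608, minus strand) are shown because these genes had the largest genotype differences of the 8. They have no capitals, since no gene start was paired with theirs within the window.
Mrpl55: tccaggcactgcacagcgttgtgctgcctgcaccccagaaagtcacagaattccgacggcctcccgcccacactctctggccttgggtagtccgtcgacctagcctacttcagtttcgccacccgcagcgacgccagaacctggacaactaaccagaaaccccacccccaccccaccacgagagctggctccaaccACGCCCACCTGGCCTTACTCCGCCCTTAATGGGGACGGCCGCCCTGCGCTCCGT
Pttg1: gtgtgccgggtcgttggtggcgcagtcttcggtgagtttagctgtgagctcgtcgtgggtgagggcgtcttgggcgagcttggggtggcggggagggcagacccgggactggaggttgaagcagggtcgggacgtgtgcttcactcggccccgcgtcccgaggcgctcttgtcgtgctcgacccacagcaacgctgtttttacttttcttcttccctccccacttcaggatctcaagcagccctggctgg
Cyfip2: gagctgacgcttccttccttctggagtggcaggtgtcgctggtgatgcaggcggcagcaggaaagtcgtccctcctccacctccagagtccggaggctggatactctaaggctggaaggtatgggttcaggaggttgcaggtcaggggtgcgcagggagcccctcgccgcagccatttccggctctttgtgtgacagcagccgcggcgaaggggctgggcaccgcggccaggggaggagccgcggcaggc

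All 8 genes matched the RefSeq promoter table. The share of G and C was 64% before Mrpl55, 63.6% before Pttg1 and 66.4% before Cyfip2, and the median over 32851 promoters of that length was 52.4%. Short motifs were looked for on both strands in the 250 bases before each start: the GC box GGGCGG, the CCAAT box CCAAT, the TATA box TATAAA and the cell-cycle element TTTGAA. None of the 4 was found in the windows of Pttg1 and Cyfip2, which says only that these letters are not in these windows. The Mrpl55 window held 3 matches to the GC box and that of 2610507I01Rik, which shares the 54 bases, held 2. Both matches of 2610507I01Rik lie in the shared bases, so the same sites are counted for Mrpl55 as well. The GC box also had 2 matches before Mfap3, 1 before B9d1 and 1 or 2 before each of the 3 starts listed for Acsl6. A GC box stood in 32.7% of all promoters. The window of 2210407C18Rik held 1 CCAAT box and 1 TATA box, and 2 of the 3 windows of Acsl6 held 1 CCAAT box. These stood in 33.8% (CCAAT) and 12.4% (TATA) of all promoters, and the cell-cycle element, in none of the windows of the 8 genes, stood in 16%. These matches are descriptions of the sequence and name no bound factor.

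The signals of the 8 genes follow in the MAS5 units of the deposited table, always in the order of replicates 1, 2 and 3. A log2 difference is taken on log2(signal + 16) with its standard error (SE) from limma, and a fold is taken on the same scale, where the added 16 shrinks the folds of dim genes. In bulk tissue fewer cells of a type and less RNA per cell cannot be told apart. No detection calls were used, so whether the lowest signals lie above background was not tested.

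Pttg1 had the largest difference of the 8. Its signals were 22078, 20866 and 21752 in wild-type control hearts and 21801, 21818 and 23504 in wild-type IP hearts. In the knockout they were 1605, 1414 and 1555 in control hearts and 1455, 1190 and 1272 in IP hearts. Every wild-type array thus lay far above every knockout array, and the spread within a group was small beside that gap. The log2 difference, knockout minus wild type, was -3.81 ± 0.08 in control hearts and -4.09 ± 0.08 in IP hearts, and averaged over treatments the level was 15.4-fold lower.

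Cyfip2 had nearly as large a gap but varied more in the knockout. Wild-type signals were 3579, 4600 and 4155 in control and 4604, 4754 and 4494 in IP hearts. Knockout signals were 293, 414 and 639 in control and 232, 401 and 438 in IP hearts. The highest knockout array, the third control, stayed far below the lowest wild-type array. The log2 difference was -3.21 ± 0.24 in control hearts and -3.68 ± 0.24 in IP hearts, or 9.27-fold and 12.8-fold lower.

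Mrpl55 and 2610507I01Rik, the head-to-head pair, were both lower in the knockout, by very different amounts. Mrpl55 had signals of 5239, 4554 and 4578 in wild-type control and 3862, 4469 and 3988 in wild-type IP hearts. Its knockout signals were 2638, 2962 and 2657 in control and 3014, 2683 and 2434 in IP hearts. The genotypes did not overlap, and the log2 differences were -0.79 ± 0.10 in control hearts (1.73-fold lower) and -0.60 ± 0.10 in IP hearts (1.51-fold lower). For 2610507I01Rik the wild-type signals were 521, 528 and 515 in control and 239, 295 and 354 in IP hearts. Its knockout signals were 25.3, 66.6 and 69.8 in control and 52.6, 18.4 and 23.4 in IP hearts. The knockout arrays of 2610507I01Rik lay near or below the array medians, which ranged from 66.5 to 81.1, so the size of its difference depends on the offset of 16. Its log2 difference was -3.02 ± 0.31 in control and -2.77 ± 0.31 in IP hearts. Averaged over treatments it was -2.89, and it was -3.35 with an offset of 1 and -2.13 with an offset of 64.

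Mfap3 was lower in the knockout within each treatment by a smaller step. Its signals were 980, 1109 and 1079 in wild-type control and 813, 823 and 728 in wild-type IP hearts. They were 746, 711 and 745 in knockout control and 625, 587 and 578 in knockout IP hearts. Within a treatment the genotypes did not overlap, but the knockout control arrays overlapped the wild-type IP arrays. The log2 difference was -0.51 ± 0.10 in control and -0.39 ± 0.10 in IP hearts.

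2210407C18Rik had signals of 370, 536 and 1195 in wild-type control and 474, 664 and 484 in wild-type IP hearts. In the knockout they were 228, 183 and 131 in control and 194, 273 and 202 in IP hearts. The third wild-type control array stood apart from the other two, and even so no knockout array reached the lowest wild-type array. The log2 difference was -1.73 ± 0.32 in control hearts and -1.22 ± 0.32 in IP hearts, and averaged over treatments it was -1.47 with that array and -1.24 without it.

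B9d1 and Acsl6 were the 2 genes with higher signals in the knockout. B9d1 had signals of 157 and 165 on the first and second wild-type control arrays, and the third array was missing for it because it falls in a run of zeros there. Its wild-type IP signals were 154, 159 and 179, and its knockout signals were 320, 334 and 325 in control and 256, 237 and 189 in IP hearts. The genotypes did not overlap, but the third knockout IP array came close to the third wild-type IP array. The log2 difference of B9d1 over 11 arrays was 0.95 ± 0.18 in control hearts and 0.43 ± 0.16 in IP hearts, or 1.93-fold and 1.34-fold higher. Acsl6 had signals of 520, 645 and 595 in wild-type control and 606, 543 and 570 in wild-type IP hearts. Its knockout signals were 808, 718 and 754 in control and 874, 890 and 802 in IP hearts. All 6 knockout arrays of Acsl6 lay above all 6 wild-type arrays, with log2 differences of 0.37 ± 0.11 and 0.56 ± 0.11.

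**Figure D1:**
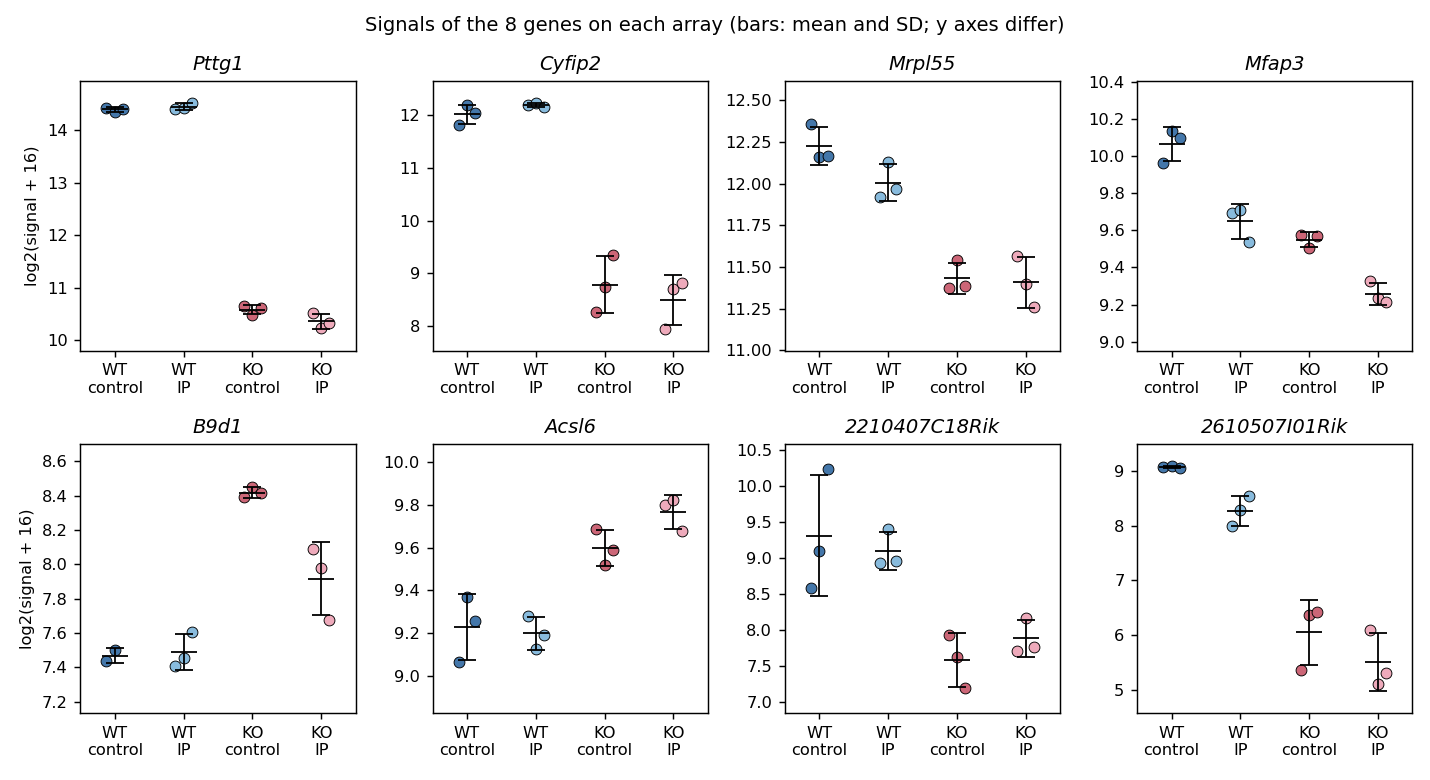
Each panel plots log2(signal + 16) of 1 of the 8 genes on every array, with 3 arrays in each of the 4 groups (2 in the wild-type control group for B9d1), and bars give the mean and SD of a group. In every panel the knockout arrays (red) lie on one side of the wild-type arrays (blue) of the same treatment, lower for 6 genes and higher for B9d1 and Acsl6.

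The pattern over the 8 genes was the same in both treatments, 6 lower and 2 higher in the knockout, with no overlap between the genotypes in either treatment. Over all 14044 genes the arrays of the genotypes did not overlap for 12.2% in control hearts and 19.6% in IP hearts. The median log2 difference of the 8 genes, averaged over treatments, was -1.08, and that of all genes was -0.01. In the limma fit 20 genes, or 0.142% of those tested, passed an adjusted p of 0.05 in the averaged comparison, and the 8 genes were among them because they had been picked on it. Of the 8, 4 were called without knockout control array 2 or without wild-type IP array 2, and 5 without any one of knockout IP arrays 1, 2 and 3, knockout control array 1 and wild-type IP array 1. With the replicate number as a block, and with the zeros kept, 5 were called. In control hearts 5 genes (0.0356%) passed, 4 of them among the 8, and in IP hearts 16 (0.114%) passed, again with 4 of the 8. Those 4 were Pttg1, Cyfip2, Mrpl55 and 2610507I01Rik. Nearest to the threshold in the averaged comparison lay B9d1 on the inner side, with a log2 difference of 0.69 ± 0.12, and on the outer side of the genes within 20 Mb of Adora2b lay Sparc, a collagen-binding matrix protein, with 0.40 ± 0.08 over 11 arrays.

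The separate probe sets of a gene mostly pointed the same way. All 3 probe sets of Pttg1 were lower, by -3.95 ± 0.06, -3.69 ± 0.11 and -2.38 ± 0.30 on the log2 scale averaged over treatments. The dimmest of them, with wild-type signals of 96.8 to 257, had the smallest difference. The probe sets of Cyfip2 disagreed: its 2 bright ones gave -3.45 ± 0.16 and -3.17 ± 0.13, the third gave -1.34 ± 0.31, and the fourth and dimmest gave 0.75 ± 0.35. On that dimmest probe set no array of any group exceeded 69.9. For 2610507I01Rik the second probe set gave -2.72 ± 0.28, close to the first. For Mfap3 the differences were -0.45 ± 0.07, -0.30 ± 0.07 and -0.05 ± 0.26 from the brightest to the dimmest probe set, and for Acsl6 they were 0.47 ± 0.08 and 0.51 ± 0.23. The authors' deposited table, made with a summary of its own, marks 14 of the 17 probe sets as different in control hearts, 2 higher and 12 lower, and the same numbers in IP hearts. The table marks 2.15% of all probe sets in control hearts and 3.87% in IP hearts.

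**Figure D2:**
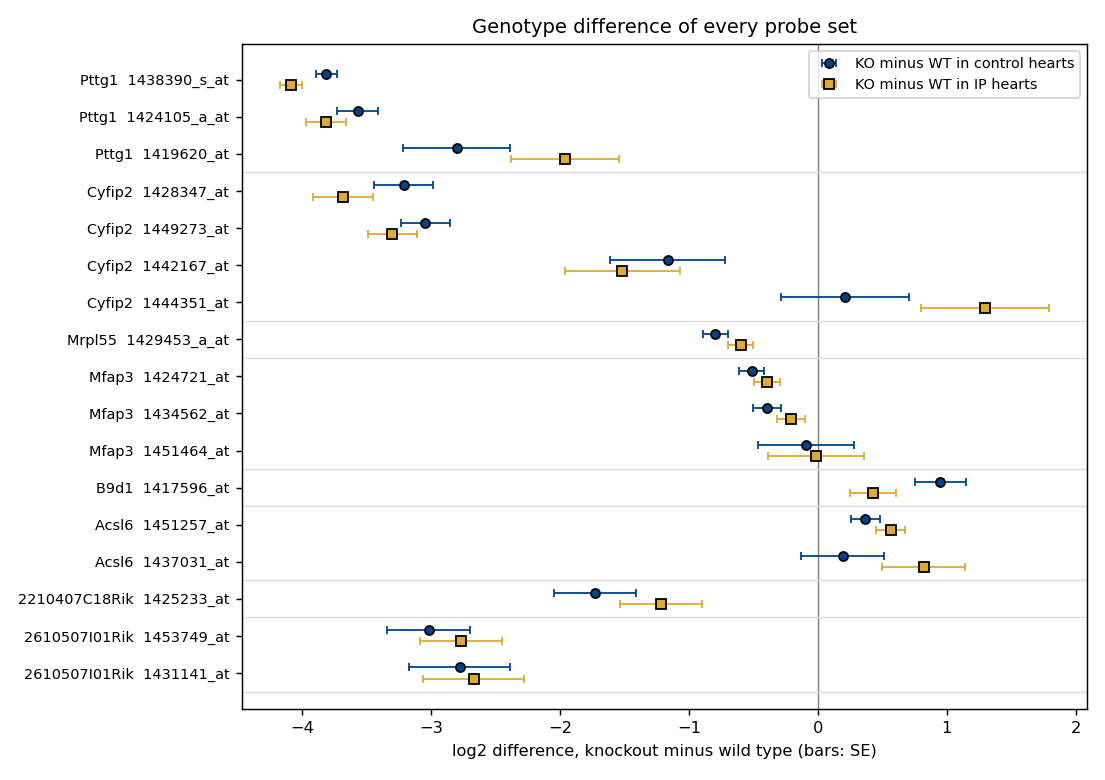
Points give the log2 difference, knockout minus wild type, of each of the 17 probe sets in control hearts (circles) and in IP hearts (squares), and bars are SE from limma. The 3 probe sets of Pttg1 and both of 2610507I01Rik lie between -1.9 and -4.1, the B9d1 and Acsl6 probe sets lie to the right of 0, and the dimmest probe set of Cyfip2 lies on the other side of 0 from the other 3 of that gene.

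Adora2b itself checks the labels. Its brightest probe set had signals of 42.1, 71.1 and 72.0 in wild-type control and 207, 165 and 156 in wild-type IP hearts. In the knockout it had 18.6, 52.0 and 62.6 in control and 52.3, 61.5 and 47.7 in IP hearts. The control groups overlapped and the IP groups did not. Over both treatments the knockout was lower by -0.94 on the log2 scale (two-sided exact permutation test over 924 splits of the 12 arrays, p = 0.0346), and the other 3 probe sets gave p = 0.0801 to 0.106 in that exact test. The splits did not keep the treatments apart, and Adora2b rose with IP in wild-type hearts, by a log2 change of 1.32 ± 0.33 (limma adjusted p = 0.0135). The genotype difference of Adora2b did not pass in limma, with adjusted p of 0.13 averaged, 0.869 in control hearts and 0.0958 in IP hearts. Which part of the gene is deleted is not stated, so it was not tested whether these probe sets lie inside it.

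The genes around the 8 were then examined to see how far along the chromosome the genotype difference reached. Within 20 Mb of Adora2b 421 genes with a position were tested, and 8 of them (1.90%) passed in the averaged comparison, 7 of them being among the 8 genes described here. Of the 414 others 1 gene (0.242%) passed, and on the other chromosomes 8 of 11503 (0.0695%) did. Among genes without a position, 2610507I01Rik left aside, 3 of 1472 (0.204%) passed, and whether these lie near Adora2b was not tested. Beyond 20 Mb on chromosome 11 none of 302 genes up to 40 Mb and none of 345 farther away passed. With Adora2b itself left aside, 7 of the 174 genes at lower coordinates within 20 Mb passed, all 7 being members, against 1 of 246 at higher coordinates. Since the members were picked on this comparison, the counts that hold them describe the choice and carry no test. The count over the 414 others is what that choice left over, and it rests on 1 gene.

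The 1 other gene was Tvp23b, a membrane protein of the Golgi, 0.613 Mb from Adora2b on the side away from the members (62695685 to 62711379). Its signals were 1306, 1381 and 1257 in wild-type control and 774, 933 and 946 in wild-type IP hearts. In the knockout they were 1710, 1566 and 1542 in control and 1387, 1417 and 1213 in IP hearts. Within each treatment the knockout arrays of Tvp23b lay above the wild-type arrays. The averaged log2 difference was 0.44 ± 0.07 with a limma adjusted p of 0.0339. The call was lost without knockout IP array 1 or 2, knockout control array 1 or 2, wild-type IP array 1 or 2, or wild-type control array 1 (adjusted p 0.0630 to 0.111).

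The nearest tested gene with a position on each side of the 7 placed members was also read, a choice made after values had been seen. The member 2610507I01Rik, which starts 54 bases from Mrpl55, has no position in the authors' deposited table and so was not counted as a neighbour. None of these 14 neighbours passed in the averaged limma comparison. An unadjusted p below 0.05 was found for 3 of them, against 1607 of all 14044 genes. The log2 differences of the 14 ran from -0.72 to 0.47 with adjusted p from 0.29 to 0.925. Slu7, a splicing factor that is next to Pttg1, differed by -0.14 ± 0.10. Med7, a Mediator subunit next to Cyfip2, differed by -0.08 ± 0.08. Guk1, the guanylate kinase beside Mrpl55, differed by -0.19 ± 0.07, and Fam114a2, beside Mfap3, by -0.18 ± 0.06. Mapk7 and Epn2, on either side of B9d1, differed by -0.17 ± 0.17 and -0.06 ± 0.11. The widest of the 14 was Adam19, a membrane metalloprotease next to Cyfip2, at -0.72 ± 0.26 with an adjusted p of 0.307. The large differences of Pttg1 and Cyfip2 thus stood between neighbours for which the limma fit made no call.

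**Figure D3:**
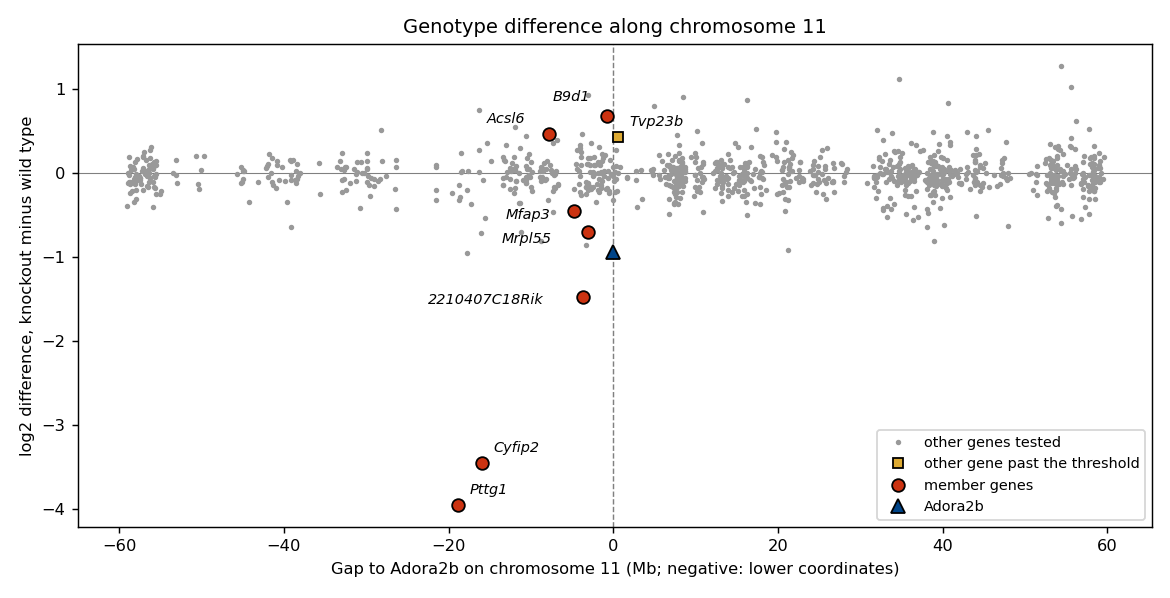
Each point is a gene tested on chromosome 11, placed by its gap to Adora2b in Mb (x axis, negative at lower coordinates) and by its log2 difference, knockout minus wild type, averaged over treatments (y axis). The 7 placed members lie between -18.8 and -0.736 Mb among grey points near 0, Tvp23b is the square at 0.613 Mb, and Adora2b is the triangle.

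Whether preconditioning moved the 8 genes was tested next. Mfap3 fell with IP. Averaged over genotypes its log2 change was -0.35 ± 0.07 (limma adjusted p = 0.00205), which is 1.28-fold lower. Its IP arrays lay below the control arrays in both genotypes, at 728 to 823 against 980 to 1109 in wild type and at 578 to 625 against 711 to 746 in the knockout. In wild-type hearts alone the change was -0.41 ± 0.10 (limma adjusted p = 0.0122), and without wild-type control array 2 it was -0.38 with an adjusted p of 0.0521. In knockout hearts alone it was -0.29 ± 0.10 and did not pass (limma adjusted p = 0.0756). The other 2 probe sets of Mfap3 gave -0.43 ± 0.07 and -0.88 ± 0.26 over both genotypes, with limma adjusted p of 0.0012 and 0.0434 over all probe sets, of which 6.35% fell.

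2610507I01Rik also fell with IP in the averaged comparison, by a log2 change of -0.68 ± 0.22 (limma adjusted p = 0.0311). The wild-type arrays separated, 239 to 354 after IP against 515 to 528 in controls, and the knockout arrays overlapped at signals where the offset weighs. The call held without knockout IP array 1, knockout control array 1 or wild-type IP array 3, and was lost without any one of the other 9 arrays (adjusted p 0.0529 to 0.0789). Its second probe set changed by -0.34 ± 0.28 (limma adjusted p = 0.55).

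In sum 2 of the 8 genes fell and none rose with IP averaged over genotypes, where 26.2% of all genes passed, 17.7% lower and 8.52% higher. The median change of the 8 was -0.10 and that of all genes -0.07. In wild-type hearts 1 of the 8, Mfap3, passed, against 16.6% of all genes in either direction, and 3 of the 8 had an unadjusted p below 0.05 in limma, against 4198 of all 14044 genes. There Mrpl55 passed as well with quantile normalization (limma adjusted p = 0.0489), and 2610507I01Rik with an offset of 64 (0.0183) or without knockout control array 1 (0.0442). In knockout hearts none of the 8 passed in limma, against 12.1% of all genes in either direction, and 3 of the 8 had an unadjusted p below 0.05, against 3709 of all genes. Some settings made calls there: B9d1 passed with a filter at the 60th percentile (limma adjusted p = 0.0483), without the intensity trend (0.0276) and with the mean of probe sets (0.0423), Mfap3 with that mean (0.0354), and Pttg1 without knockout IP array 1 (0.0334). Pttg1 had a log2 change of -0.09 with a 95% interval of -0.21 to 0.04 over both genotypes, and Cyfip2 one of -0.06 with an interval of -0.42 to 0.30. For Mrpl55 the change was -0.12 (-0.27 to 0.02), although its wild-type IP arrays all lay below its wild-type control arrays. B9d1 changed by -0.24 (-0.50 to 0.02), Acsl6 by 0.07 (-0.10 to 0.24) and 2210407C18Rik by 0.04 (-0.44 to 0.53). These intervals leave room for moderate changes in either direction for Cyfip2 and 2210407C18Rik. For IP the authors' deposited table marks 6 of the 17 probe sets lower in wild type, 3 lower in the knockout and 0 higher. The marks in wild type are on Mrpl55, Mfap3, 2610507I01Rik and the dimmest probe set of Pttg1, and those in the knockout on Mfap3 and B9d1. The share of all probe sets marked for IP in that table was not counted, so these marks have no background beside them. Over every probe set limma called 2 of the 17 lower in wild type and 0 in the knockout. Of all 45037 probe sets it called 2631 in wild type and 1942 in the knockout, in either direction.

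The difference between the genotypes in their response to IP was tested as an interaction. None of the 8 genes and none of all 14044 genes (0%) passed in limma. At an unadjusted p below 0.05 there were 2 of the 8, Pttg1 and B9d1, and 1105 of all genes. Pttg1 changed by 0.05 ± 0.08 in wild-type and by -0.22 ± 0.08 in knockout hearts, a difference of -0.28 with a 95% interval of -0.52 to -0.03 and an adjusted p of 0.598 in limma. B9d1 changed by 0.02 ± 0.18 in wild-type hearts over 5 arrays and by -0.50 ± 0.16 in knockout hearts, and the difference of -0.52 had an interval of -1.04 to -0.0038. The intervals of the other 6 genes included 0, and the widest was that of 2210407C18Rik, from -0.46 to 1.47.

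The authors' deposited table marks 3 of the 17 probe sets for this difference and 0.842% of all probe sets. They are both probe sets of 2610507I01Rik, with log2 differences of 1.01 and 1.18 in the authors' deposited table, and the dimmest of Pttg1, with 0.48 there. The fit to the MAS5 signals gave 0.25 ± 0.45 and 0.11 ± 0.55 for the probe sets of 2610507I01Rik and 0.84 ± 0.59 for that of Pttg1, none of them past the threshold. Where the sources of values differed in this way, the wild-type IP change of 2610507I01Rik was -1.28 in the authors' deposited table and -0.80 in the fit, and the knockout change was -0.27 and -0.55. Why the values differ was not tested.

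**Figure D4:**
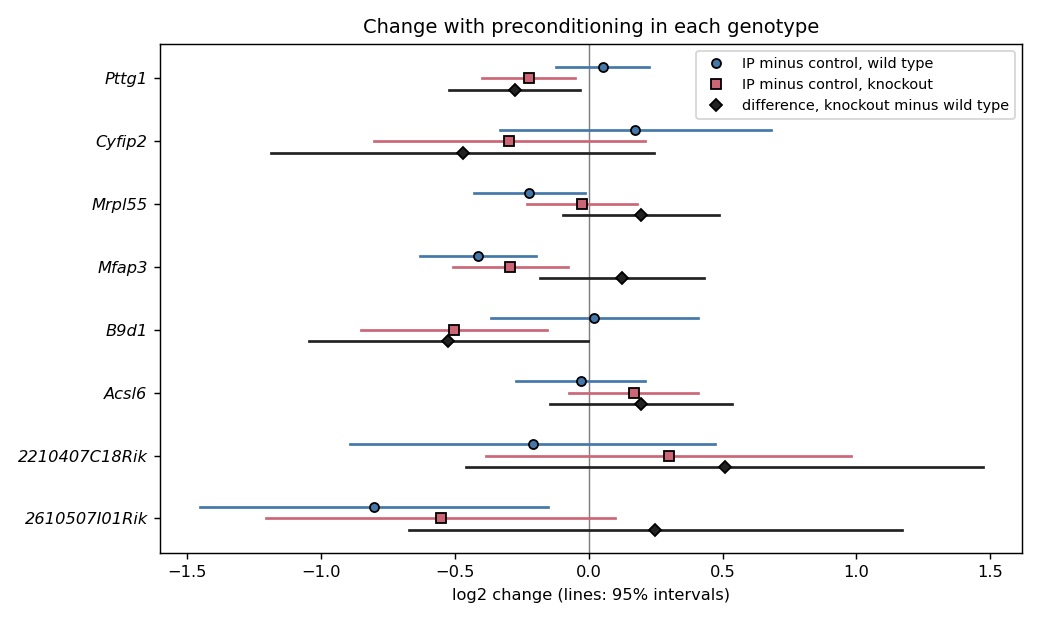
For each of the 8 genes the points give the log2 change with IP in wild type (blue circles), in knockout (red squares), and the difference between them (black diamonds), and lines are 95% intervals. The wild-type intervals of Mrpl55, Mfap3 and 2610507I01Rik and the knockout intervals of Pttg1, Mfap3 and B9d1 lie below 0. Of these changes only that of Mfap3 in wild type passed the adjusted threshold. The intervals of the difference include 0 for every gene except Pttg1 and B9d1, whose adjusted p did not pass.

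The partners of the 8 genes were read from 6 lists with 109 genes tested of 120 listed. None of the 109 passed in any of the 3 genotype comparisons in limma, and 19 had an unadjusted p below 0.05 in the averaged one, against 1607 of all 14044 genes. For Pttg1, 13 separase, cohesin and anaphase genes had a median log2 difference of 0.12, and the smallest p belonged to Fzr1, an activator of the anaphase-promoting complex, at 0.28 ± 0.09 (adjusted p = 0.272). For Cyfip2, 12 genes of the WAVE complex and its binding partners had a median of -0.03, led by the subunit Abi2 at -0.20 ± 0.08 (adjusted p = 0.36). For Mrpl55, 48 proteins of the large mitochondrial ribosomal subunit had a median of 0.08, and Mrpl22 differed by -0.23 ± 0.06 (adjusted p = 0.154). Mrpl22 was the lowest of the 48 and itself lies on chromosome 11, at -4.07 Mb from Adora2b on the side of the members. The values of these partners stayed far from the size seen for Pttg1 and Cyfip2 themselves.

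For B9d1, 13 transition zone genes had a median genotype difference of -0.07, with Nphp4, which is tied to kidney cilia, at -0.71 ± 0.35 (adjusted p = 0.475). For Acsl6, 9 acyl-CoA synthetases and transporters had a median of -0.04, and Acsl1, the main heart isoform, differed by -0.09 ± 0.04 (adjusted p = 0.369). For Mfap3, 14 microfibril genes had a median of -0.03, with the matrix protein fibulin-1 (Fbln1) at -0.30 ± 0.10 (adjusted p = 0.285). With IP averaged over genotypes, 20 of the 48 mitochondrial ribosome genes fell and none rose, against 17.7% of all genes that fell. In the transition zone list 4 of 13 fell, in the microfibril list 2 of 14, in the separase list 2 of 13 fell and 1 rose, in the WAVE list 3 of 12 rose, and in the synthetase list 3 of 9 fell and 2 rose. The lists were chosen with earlier results known and are described without a test.

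Markers of heart muscle were all bright, and 6 lists of cell type markers were read beside the genotype differences, with 44 genes tested of 72 listed and none past the threshold in limma in a genotype comparison. In the averaged one 17 of them had an unadjusted p below 0.05 in limma, against 1607 of all 14044 genes. Of 15 cardiomyocyte markers 11 did, with a median log2 difference of -0.10, led by Myoz2 at -0.16 ± 0.04. In control hearts 0 of the 15 did, with a median of 0.02, and in IP hearts 11 did, with a median of -0.23. The summed signal of 13 of these markers ran from 512178 to 560434 in wild-type control and from 516046 to 565143 in knockout control hearts. After IP it ran from 610420 to 615895 in wild type and from 518753 to 551331 in the knockout, so that the genotypes separated only there. Of 16 markers of cycling cells, in which securin is known to be high, 12 were tested with a median of 0.40, and Birc5 was at 1.03 ± 0.38 (adjusted p = 0.315). Their summed signal ran from 1161 to 1742 in wild-type control and 1639 to 1918 in knockout control hearts. After IP it ran from 1438 to 1718 in wild type and from 1626 to 2191 in the knockout, so the genotypes overlapped in both treatments. Cenpf had a mean signal of 797 and weighs most in this sum. The other tested markers of cycling cells were dim, with mean signals of 49.1 to 128 beside array medians of 66.5 to 81.1.

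Of erythroid markers 3 of 10 were tested (Klf1 0.37 ± 0.28), of lymphocyte markers 6 of 12 (Lck 0.49 ± 0.25), of neuronal markers 6 of 12 (Elavl4 -0.87 ± 0.40) and of ciliated epithelium 2 of 7 (Tppp3 0.26 ± 0.12). Except for Hba-a1 among the erythroid markers, these tested markers had mean signals below 800. The summed erythroid signal ran from 20646 to 35657 in wild-type control, 36581 to 44976 in wild-type IP, 28234 to 32738 in knockout control and 30597 to 32983 in knockout IP hearts. The part of any of these cell types in the differences of the 8 genes was not tested.

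The profiles over the arrays were compared last. For each of the 8 the gene with the smallest root mean square (RMS) difference of mean-centred log2 values was found among genes with values on the same arrays. Pttg1 and Cyfip2 were each other's nearest profile, at an RMS of 0.435 over 12 arrays, and Cyfip2 was also nearest to 2610507I01Rik at 0.633. For 2210407C18Rik it was Rab4a, a small GTPase of endosomes on chromosome 8, at 0.502, and Rab4a was itself lower in the knockout by -1.64. The other 4 members had nearest genes outside the 8: 4633401B06Rik for Mrpl55 at 0.169, Cbx6 for Mfap3 at 0.134, Abcg1 for B9d1 at 0.155 over 11 arrays, and Mef2c for Acsl6 at 0.123. These last nearest genes differed between the genotypes in the direction of their member, by -0.67, -0.28, 0.40 and 0.32 in that order. Since all 8 members were picked on their genotype difference, these likenesses, that of Rab4a included, repeat that choice.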

How the data were processed

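Left ventricular RNA was hybridised to 12 Affymetrix mouse arrays. The deposited value table holds 1 intensity per probe set, made with MAS5 per the submitters' processing notes; neither label nor header states a scaling target or genome build. A second table that the authors deposited, with their tests, holds log2 values and differences, F statistics given as scores, a p-value with its adjusted form and decision scores, per the file headers.

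The third wild-type control array has a run of 1425 zeros, taken as missing (runs of at least 100), so genes in it, B9d1 included, rest on 11 arrays (852 genes in all). Of 45101 probe sets 64 controls were left out, and log2(signal + 16) was taken. Probe sets above the 40th percentile (27022) with exactly 1 symbol were kept, the brightest per gene, which gave 14044 genes. Of the 45037 probe sets used, 40137 have 1 symbol, 1232 several and 3668 none, and symbols were updated by Entrez identifier in a RefSeq table. Median signals ran from 66.5 to 81.1, and rank correlations within groups from 0.908 to 0.918.

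Limma 3.58.1 in R 4.3.3 fitted 1 mean per group (8 residual degrees of freedom, intensity trend), with Benjamini-Hochberg adjustment over all genes and a threshold of 0.05, two-sided. The fit was tested on simulated data. Exact tests used scipy 1.17.1. The alternatives tried were quantile normalization, offsets of 1 and 64, no filter or the 60th percentile, no trend, robust moderation, array weights, other probe set rules, the replicate number as a block, zeros kept, and leaving out each array.

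The members and gene lists were chosen with earlier results of these data known. The genes named are the members, Adora2b, other genes past the threshold within 20 Mb, the gene of each list with the smallest p where none passed, and each member's nearest profile. Sparc, the neighbours, Hba-a1, Cenpf and the head-to-head pair were chosen after their values were seen.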

Additional observations from a re-analysis of the deposited data

How the results depend on the processing

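Over 288 values of the 8 genotype differences without 1 array and 288 under other settings, all kept their direction. Those that moved by over 1.5 times were B9d1 with zeros kept (2.11 in control hearts, 1.27 averaged) and Mfap3 with the mean of probe sets (-0.33 in control, -0.20 in IP hearts, -0.27 averaged). The replicate numbers were not treated as pairs: over 18 pairs of arrays with the same number the correlations of deviations ran from -0.0558 to 0.0761, and 7 of 12 arrays were closest to their own number. With the replicate number as a block 14 genes passed in the averaged genotype comparison (20 unpaired), 6 in control hearts (5), 20 in IP hearts (16), 3507 with IP averaged (3676), 2188 in wild type (2328), 1537 in knockout (1705) and 0 for the difference. The count of 5 in control hearts became 8 with an offset of 64 and 13 over every probe set, and ran from 5 to 9 leaving out 1 array. The count of 16 in IP hearts became 4 without the intensity trend, 45 with array weights, 47 over every probe set and 6 with zeros kept, and ran from 5 to 39. The averaged count of 20 became 7, 31, 56 and 6 under those settings, and ran from 6 (without wild-type IP array 2) to 40 (without knockout control array 3; 35 without wild-type control array 3). The IP counts ran from 1420 to 2351 in wild type, lowest without IP array 1, from 948 to 1704 in knockout, where it was 948 without IP array 3 and 1097 without control array 3, and from 3020 to 3477 averaged; no gene passed for the difference in any setting. Mfap3 fell with IP under all 24 alternatives (-0.55 with the mean of probe sets). Among the 768 values of the IP changes of the 8 genes, 8 became calls, as given with the counts in wild-type and knockout hearts. For 2610507I01Rik the IP call was lost with an offset of 1, no filter, array weights, the mean of probe sets, every probe set and zeros kept (adjusted p 0.0521 to 0.0941). The call of Tvp23b was lost without the trend, with the block and with zeros kept (adjusted p 0.0559 to 0.119). Changes that were not called and turned sign were Pttg1 in wild type with quantile normalization (-0.0684) and with the mean of probe sets (-0.31), its genotype difference of the IP effect with that mean (0.11), Mrpl55 in knockout with array weights (0.000478), B9d1 averaged with zeros kept (0.34) and Acsl6 averaged with the mean of probe sets (-0.18). Leaving out 1 array gave -0.191 to 0.0794 for Cyfip2 averaged, -0.104 to 0.049 for Mrpl55 in knockout, -0.0373 to 0.062 for B9d1 and -0.111 to 0.0400 for Acsl6 in wild type, -0.14 to 0.28 averaged and -0.57 to 0.25 in wild type for 2210407C18Rik, and -0.093 to 0.448 for the difference of 2610507I01Rik. The cause of these shifts was not tested. Differences of dim probe sets, such as those of 2610507I01Rik in the knockout, depend on the offset, and whether those signals lie above background was not tested.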
